A study of Mus musculus with 2 samples.

Results

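GABPα binding in CD4+ T cells was examined at 684 narrow peaks that lie at the start of a single protein-coding gene. They were chosen from the 6782 deposited peaks, of which they make up 10.1%, by 4 properties: a width of 160 bp or less, under 50% of bases soft-masked (written in lower case as repeats in the reference), a distance of at most 1000 bp to the outermost annotated start of a protein-coding gene, and no head-to-head coding gene starting within 1000 bp of that start on the opposite strand. A coding gene on the opposite strand that overlaps the gene did not count as head-to-head, so a single start can have such a partner. Of the 684 peaks, 1 was also within 1000 bp of the start of another gene that has a head-to-head partner. Chromatin came from CD4+ T cells of wild-type C57BL/6 mice, purified with MACS beads and immunoprecipitated with an antibody against GABPα (sc-22810X, Santa Cruz). The comparison library was input DNA of the same kind of cells, made without antibody. There was 1 ChIP library and 1 input library, so no value below has a replicate, no test across samples was possible and no p-value is given. The list holds positions only, with no height, fold or q value, and the depth of both libraries is unknown here. CD4 and the other T-cell markers that could check the identity of the cells are not measured by a peak list.

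GABP is a transcription factor made of GABPα, which carries the ETS DNA-binding domain, and GABPβ, which carries the activation domain. ETS domains bind a GGAA core, and the base pairs on either side set which family member prefers the site. GABP is known for binding near the start sites of housekeeping genes, many of them for mitochondria, ribosomes, RNA processing and cell division, and promoters of this kind often lack a TATA box and are rich in CpG.

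The sites below show the range of cores found under the narrow peaks. They are 24 bases of mm10, written 5′ to 3′ on the strand that reads GGAA. The capitals mark the part that put the site in its class, and each gene is among the 4 of its class whose core lies nearest the gene start.
Myo9b: tccggaacCCGGAAGTgaaatcgc
Mtx3: tctgtcacCCGGAAGTactcgtac
Trnau1ap: tgggggggCCGGAAGcggcggaca
Pih1d1: cggccttctCGGAAGccccgcccc
Itm2b: ctgcgaggCCGGAAaccgcgctgc
Ndufb2: cgggactcggGGAAGtgacgcatc
Cwc27: acacgcggtcGGAAccatttcggc
The site at Myo9b lies at chr8:71272704-71272727 on the plus strand and that at Mtx3 at chr13:92844747-92844770 on the minus strand. The site at Trnau1ap lies at chr4:132329525-132329548 on the minus strand, and that at Pih1d1 at chr7:45154289-45154312, also on the minus strand. The remaining sites lie at chr14:73385276-73385299 on the minus strand for Itm2b, chr6:39592564-39592587 on the plus strand for Ndufb2 and chr13:104817123-104817146 on the minus strand for Cwc27. In Myo9b, Mtx3, Trnau1ap, Itm2b and Ndufb2 the first G of the core stood on the start base itself, which is counted as position 0. It stood at -1 in Pih1d1 and at 6 in Cwc27, where negative positions are upstream.

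A second set shows sites at genes of the functions treated below, in the order mitochondrial ribosome, cytosolic ribosome, complex I, DNA replication, glycan synthesis and cytokine signalling.
Mrps26: cgcccggcCCGGAAGTggccgcgg
Rps27l: cctctatcCCGGAAGTtgctgagg
Ndufaf1: gaccacaaCCGGAAGcgtggcgaa
Tmem126a: ctcctggaCCGGAAGcccgtggac
Pola1: acttccgcCCGGAAGgccactgac
Mcm5: aatggagaCCGGAAagagttgact
Pmm2: gagcggacCCGGAAGTtccgggta
Ifnar1: cagtctttCCGGAAGTgggggcgg
Stat6: cagagaagCCGGAAacagcaggcc
These lie at chr2:130563734-130563757 on the minus strand (Mrps26), chr9:66946087-66946110 on the plus strand (Rps27l), chr2:119662837-119662860 on the minus strand (Ndufaf1) and chr7:90457223-90457246 on the minus strand (Tmem126a). The site at Pola1 is at chrX:93632214-93632237 and that at Mcm5 at chr8:75109384-75109407, both on the plus strand. Those at Pmm2, Ifnar1 and Stat6 are at chr16:8637703-8637726, chr16:91485060-91485083 and chr10:127642984-127643007, all on the plus strand. Ndufaf1 and Tmem126a, both assembly factors of complex I, carried CCGGAAG followed by C, whereas Mrps26, Rps27l, Pmm2 and Ifnar1 carried CCGGAAGT. Pmm2 had 8 GGAA cores in 148 bp, counted on both strands.

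The narrow peaks were nearest to 666 of 20451 single coding gene starts, or 3.26%. Peaks wider than 160 bp with the same masking and the same kind of start numbered 2057 and were nearest to 2019 of these starts, or 9.87%. Of the 2627 starts with a peak of either width, 608 (23.1%) had a narrow peak and no wide one. Both kinds of peak were present at 58 genes. At 18 genes there were 2 narrow peaks and at none more. The widths of the narrow peaks ran from 104 bp, the smallest of the list and shared by 51 of them, to 160 bp, with a median of 132 bp. They lay on 20 chromosomes, with 15 to 60 on each. No base was soft-masked in 520 of them. In 648 every 36-base sequence occurred 1 time in the genome, and 8 had no such sequence. Where 61 peaks lay within 1000 bp of several single starts, the nearest gene is the one named.

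The width and distance limits cut through a continuous range. The 3 peaks at 160 bp listed just inside the width limit were at Ino80, 283 bp upstream, at Ndufaf1, over the start, and at Ahdc1, 178 bp downstream. The 3 just outside, of 161 bp, were at Fam168b, Adipor1 and Suds3, and like Ino80 the peaks at Fam168b and Suds3 held CCGGAAGT. The farthest peaks inside the distance limit lay 972 bp downstream of Patz1, 961 bp downstream of Leng9 and 958 bp downstream of Gm3317. The nearest outside it lay 1065 bp from Ptbp2, 1072 bp upstream of Mst1 and 1092 bp from Arhgef12. None of these 6 held CCGGAAG.

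Narrow peaks gathered at the start itself. The start base was covered by 323 of 684 (47.2%, 95% Wilson interval 43.5 to 51.0%), and a start of any annotated transcript of the gene by 59.2%. Intervals here and below cover counting error only. The midpoint was within 50 bp of the start in 39.8% of narrow peaks, within 100 bp in 57.5% and within 200 bp in 71.1%, and over 500 bp away in 8.33%. The median midpoint was at -7.25 bp, with quartiles at -71.1 and 82.75 bp. Upstream and downstream were near balance, with 53.8% of midpoints upstream, 26.3% of peaks wholly upstream and 26.5% wholly downstream. By annotation 31.3% of midpoints fell in an untranslated exon part of the gene, 2.05% in a coding exon and 12.9% past the start but in an intron or outside its coding transcripts.

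**Figure D1:**
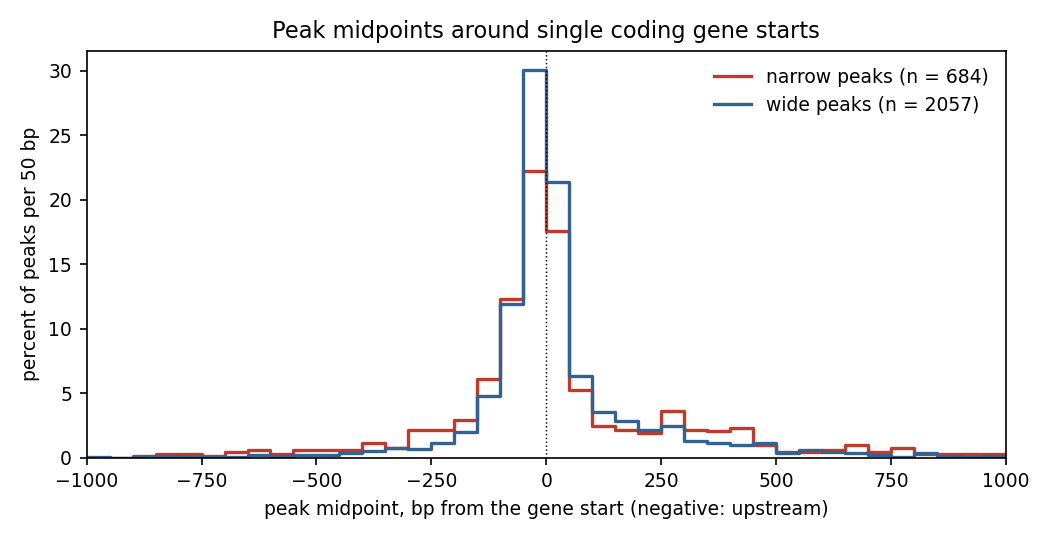
Share of peaks (percent per 50 bp, vertical axis) by the distance of the peak midpoint from the gene start (bp, horizontal axis) for 684 narrow and 2057 wide peaks, each line being 1 kind of peak. Both kinds peak over the start, and the narrow peaks have a lower summit and more of their number beyond 200 bp on either side.

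Wide peaks sat closer to the start. Their midpoint was within 50 bp in 51.5%, which is 11.8 percentage points more than in narrow peaks (Newcombe 95% interval 7.47 to 15.96), and within 200 bp in 83.0%. The median distance of the midpoint was 74.25 bp for narrow and 48 bp for wide peaks. Wide peaks covered the start more often (74.96%), a difference that their width enters directly. The share of midpoints upstream was 53.7% in wide peaks, a difference of 0.131 points from the narrow ones (-4.19 to 4.42). Another peak lay within 500 bp of 13.6% of narrow and 7.68% of wide peaks (difference 5.92 points, 3.25 to 8.89).

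The consensus core was less frequent in narrow than in wide peaks and far more frequent than at starts with no peak. CCGGAAG, sought as exact letters on both strands, was present in 275 narrow peaks (40.2%, 36.6 to 43.9%) and in 65.7% of wide peaks. The background was 16347 windows with the widths and offsets of the narrow peaks, set at single coding gene starts with no peak within 1000 bp. CCGGAAG was in 323 of these windows, or 1.98%, so the share in narrow peaks was 20.3-fold higher. With peaks and windows limited to 60 to 70% GC, an alternative chosen after seeing the data, it was 12.8-fold higher. For comparison, 8.86% of 32815 RefSeq promoters of 300 bases (GRCm38) held it. The longer CCGGAAGT was in 14.2% of narrow peaks, 37.4% of wide peaks and 0.434% of windows, and ACCGGAAGT in 3.22%, 11.5% and 0.0489%. The shorter CGGAAG was in 60.7%, 84.7% and 5.16%, and GGAA, the core of all ETS sites, in 96.9%, 99.7% and 73.4%. Each of these words contains the next shorter one, so the counts are nested.

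The wide peaks hold more bases, and the difference was smaller with every peak set to the same length. The list gives no summit, so cutting a wide peak around its midpoint also drops cores that lie away from it. The number of bases and this loss were not separated. As called, the wide minus narrow difference for CCGGAAG was 25.5 points (21.3 to 29.7). With every peak set to 200 bp around its midpoint it was 20.4 points (16.1 to 24.6), and with every peak set to 104 bp it was 15.8 points (11.5 to 19.9). For GGAA at 104 bp the shares were 95.8% and 96.5%, a difference of 0.691 points (-0.861 to 2.61). At 200 bp they were 98.7% and 99.5%, a difference of 0.781 points (0.0303 to 1.97). The difference between the kinds of peak was smaller for GGAA than for CCGGAAG at both lengths.

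**Figure D2:**
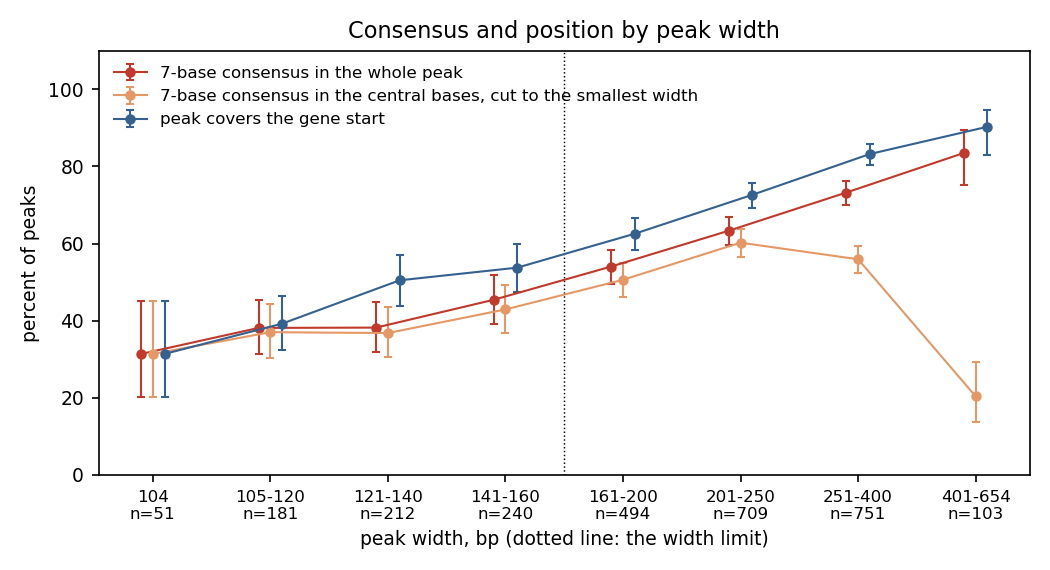
Percent of peaks (vertical axis) with CCGGAAG (7-base consensus) in the whole peak or in its central 104 bases, and percent that cover the gene start, by peak width in bp (horizontal axis, number of peaks under each class). Points are shares and bars 95% Wilson intervals, and the whole-peak share goes from 31.4% at 104 bp to 83.5% above 400 bp.

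Within the narrow peaks the consensus also went with width. CCGGAAG was in 16 of 51 peaks of 104 bp (31.4%, 20.3 to 45.03%), in 38.1% of those of 105 to 120 bp, in 38.2% of those of 121 to 140 bp and in 45.4% of those of 141 to 160 bp. In the central 104 bases the last share was 42.9% (36.8 to 49.2%). Its interval overlaps that of the smallest peaks. The start was covered by 31.4% of the peaks of 104 bp and by 53.75% of those of 141 to 160 bp. In the widest peaks, of 401 to 654 bp, CCGGAAG was in 83.5% of whole peaks and in 20.4% of their central 104 bases.

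Each narrow peak was placed by its best core. CCGGAAGT was the best core of 97 peaks. CCGGAAG before a base other than T was best in 178 (26.02%, against 28.3% of wide peaks), and CGGAAG after a base other than C in 140 (20.5% against 18.96%). CCGGAA with no G behind it was best in 85 peaks, or 12.4% of narrow and 6.90% of wide peaks. The weakest classes were the 5-base core GGAAG with none of these additions, best in 111 peaks (16.2%), and the bare 4-base core, best in 52 (7.602%). In wide peaks these shares were 6.71% and 1.36%, and in windows 32.9% and 33.003%. No GGAA was found in 21 narrow peaks (3.07%), in 0.340% of wide peaks and in 26.6% of windows.

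**Figure D3:**
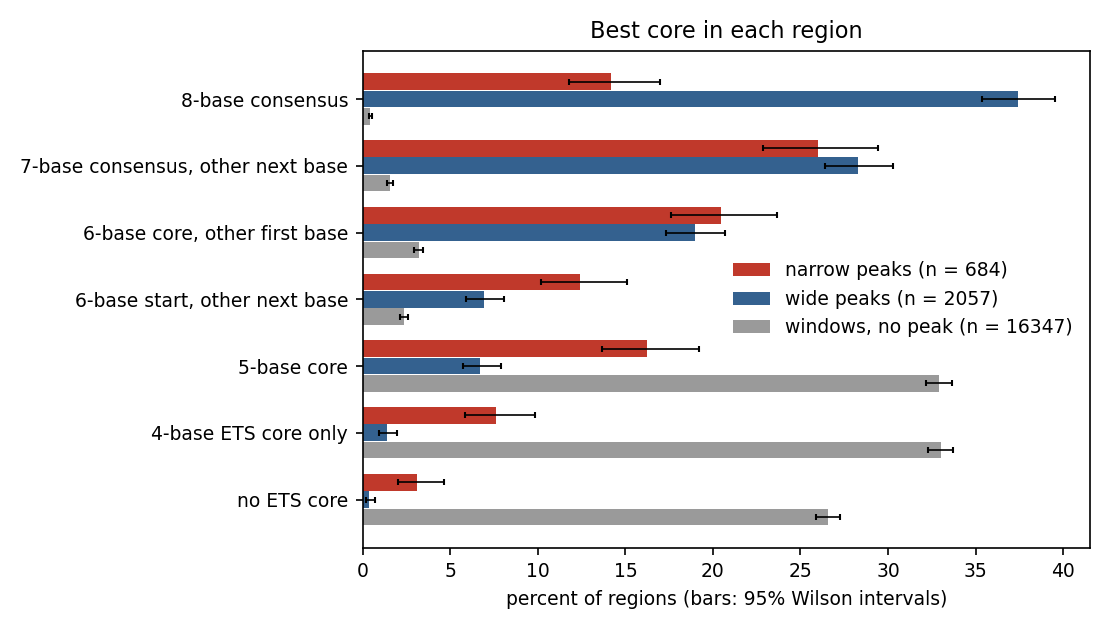
Percent of regions (horizontal axis, bars with 95% Wilson intervals) by their best core (vertical axis) in narrow peaks, wide peaks and windows at starts without a peak. The consensus is CCGGAAGT, the classes run from it at the top down to no GGAA, and narrow and wide peaks differ most in the top class, at 14.2% and 37.4%.

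The base after CCGGAAG also differed. Among peaks with exactly 1 copy, T followed in 93 of 261 narrow peaks (35.6%, 30.1 to 41.6%), in 50.1% of 975 wide peaks and in 61 of 305 windows. The narrow share was 14.4 points below the wide one (7.67 to 20.8) and 15.6 points above that of windows (8.25 to 22.9). C followed in 35.2% of narrow peaks, G in 18.01% and A in 11.1%. Copies were few: 261 narrow peaks held 1 copy, 14 held 2 and none held more, whereas 18.3% of wide peaks held at least 2. Zscan12, Ccdc181, Swi5, Zbtb34, Zscan29 and Rtca were among the genes with 2 copies.

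Of the 7-base words around GGAA, those with C before the core had the highest folds over windows. Each word of that kind holds a CpG. Narrow peaks had a median of 9.24 CpG per 100 bases and windows 2.70. The folds were not adjusted for CpG content, and how far they follow it was not tested. Behind the consensus came GCGGAAG, in 124 narrow peaks (18.1%, 10.4-fold the share of windows), CCGGAAA in 67 (9.76-fold) and CCGGAAC in 57 (7.36-fold). ACGGAAG was in 41 (7.15-fold), GCGGAAA in 48 (7.86-fold) and TCGGAAG in 11 (2.27-fold). By number of narrow peaks words without that C stood among them, with CAGGAAG in 82 (2.20-fold) and GAGGAAG in 62 (1.59-fold). CGGGAAT, which lacks that C but also holds a CpG, was in 15 and had 2.80-fold the share of windows. The core lay near the middle of the interval. The median distance between the CCGGAAG core and the peak midpoint was 15 bp, and 74.2% of cores were within 25 bp of it, against 61.5% in wide peaks, a difference that width enters directly, since a core cannot lie outside its peak. Best cores of narrow peaks without CCGGAAG stood at a median of 15.5 bp. Where a peak had several cores of its best class, the one nearest the midpoint was taken. These distances are therefore partly set by that choice, and no expected distance was computed.

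No difference in position against the gene start between narrow peaks with and without the consensus was detectable. The start was covered by 47.6% of narrow peaks with CCGGAAG and by 46.9% of those without, a difference of 0.693 points (-6.89 to 8.29), and the midpoint was within 50 bp in 39.3% and 40.1%. Another peak lay within 500 bp of 9.82% of those with CCGGAAG and 16.1% of those without (difference 6.32 points, 1.10 to 11.2). The CCGGAAG core itself was at a median of -7 bp, with quartiles at -75.5 and 80.5 bp. It was within 50 bp of the start in 38.9% of narrow peaks and 52.2% of wide ones (difference 13.3 points, 6.86 to 19.5). Between 1 and 100 bp downstream lay 20.7% of narrow-peak cores against 30.8% of wide-peak cores (difference 10.1 points, 4.41 to 15.2), and between 1 and 100 bp upstream 34.9% against 38.4% (difference 3.48 points, -2.87 to 9.47). The core read along the gene in 144 of 275 narrow peaks, 52.4% (46.5 to 58.2%), and in 52.3% of wide ones.

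The 22 narrow peaks with ACCGGAAGT included those at Armc9, Zscan12, Lyrm1, Rap2c, F8a, Gtf2ird2, Zfp687, Zfp27, Prdm9 and Lipo3, in which the word lay nearest the midpoint. The peaks at F8a, Gtf2ird2 and Zscan12 covered the start, with the core at -6, -6 and 6. Those at Rap2c, Zfp687 and Prdm9 had their midpoints at -853.5, -771 and -399.5 bp. The peak at Lipo3 held no 36-base sequence that occurs 1 time in the genome, so its gene is uncertain.

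Of the 21 peaks without GGAA 12 covered the start, beside 47.2% of all narrow peaks. Their median GC content was 72.1%, beside 66.0% in all narrow peaks. Those nearest the start were at Slc17a5, Abt1, Chst14 and Tmem50a, with midpoints at 6.5, -11.5, 15.5 and 21.5 bp. The splicing factor gene Srsf6 and Lsm14b were also among them, with 82.1% and 74.8% GC. GGGCGG, the box of SP and KLF factors, was in 16 of the 21, beside 53.5% of all narrow peaks. In 12 a GGAA lay in the 200 bp around the midpoint. At that length GGAA was in 98.7% of all narrow peaks and in 86.6% of windows at starts without a peak.

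Other promoter words were compared as well. Narrow peaks had a median GC content of 66.0% and a median of 9.24 CpG per 100 bases, against 64.3% and 8.96 in wide peaks and 54.9% and 2.70 in windows without a peak. As called, GGGCGG was in 53.5% of narrow peaks and 23.4% of windows, ATGGCGG (YY1) in 5.99% and 1.87%, CACGTG (E-box) in 6.43% and 3.08%, TGACGTCA (CRE) in 2.78% and 0.838%, GCGCATGC (NRF1) in 2.49% and 1.17%, and TCTCGCGA in 1.90% and 0.373%. TATAAA was in 0.731% and 6.39%, and TGTGGT (RUNX) in 4.09% and 6.75%. CCAAT (NF-Y) was in 20.2% and 17.6%, a difference of 2.61 points (-0.285 to 5.83), and TTCCCGCC (E2F), whose other strand contains GGAA, in 1.75% and 1.01% (-0.0210 to 2.04 points). CTACAATTC (ZNF143) was in 1.02% and 0.165%, and all 7 narrow peaks with it lacked CCGGAAG.

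Base composition moves with several of these words. In the same range of GC content, the consensus CCGGAAG was in 46.01% of narrow peaks and 3.599% of windows (12.8-fold), ATGGCGG in 7.97% and 3.36% (difference 4.61 points, 1.88 to 8.45) and GGGCGG in 53.99% and 40.4% (13.6 points, 7.46 to 19.6). TATAAA was then in 0.725% and 2.46% (-2.52 to 0.202 points), CACGTG in 7.25% and 5.01% (-0.392 to 5.98 points) and TGTGGT in 6.16% and 5.04% (-1.29 to 4.67 points), differences that counting error covers. The same held for TGACGTCA, in 2.90% and 1.62% (-0.225 to 4.02 points), and for GCGCATGC, in 3.26% and 2.37% (-0.748 to 3.75 points). TCTCGCGA stayed higher in narrow peaks, in 3.62% and 0.720% (2.90 points, 1.22 to 5.83). So did CTACAATTC, in 1.09% and 0.0600% (1.03 points, 0.293 to 3.09). The range held only 276 narrow peaks and 3334 windows, which widens the intervals. Whether base composition or the smaller number accounts for a lost difference was not tested. Against wide peaks cut to the same 104 bp, none of the 11 words other than the GABP cores differed beyond its interval. Within the narrow peaks, CCAAT was in 15.6% of those with CCGGAAG and 23.2% of those without (difference 7.59 points, 1.48 to 13.4).

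Narrow peaks at genes that also had a wide peak held the consensus less often than the rest. Of these 61 peaks 24.6% held CCGGAAG, against 41.7% of the 623 at genes with no wide peak (difference 17.1 points, 4.46 to 27.03). Pigo, in GPI-anchor synthesis, had a narrow peak at 279.5 bp and a wide one of 189 bp at 21 bp. Elk4, an ETS factor, had narrow peaks at 495 and 688 bp, neither with CCGGAAG, and a wide peak of 241 bp at -28 bp with CCGGAAGT. The 18 genes with 2 narrow peaks had them 152 to 789 bp apart by midpoint, with a median of 278.25 bp. Both held CCGGAAG at Prelid3b and Golga3, 1 of them did at 7 genes and neither did at 9. Golga3, a Golgi protein, had them at -81 and 159 bp, and the repair endonuclease gene Ercc4 at 71.5 and 223.5 bp.

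Gene functions were described with 37 lists of symbols. Counts are given beside the 3.26% of all single coding gene starts with a narrow peak and the 9.87% with a wide one, as a description without a test. Counts of cores and of covered starts within a list stand beside the shares of all 684 narrow peaks. These were 40.2% with CCGGAAG, 60.7% with CGGAAG and 47.2% over the start. Most lists hold few narrow peaks, and whether a list differs from these shares was not tested. A narrow peak was present at genes of 34 lists, and 500 of the 684 narrow peaks were at genes in none.

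**Figure D4:**
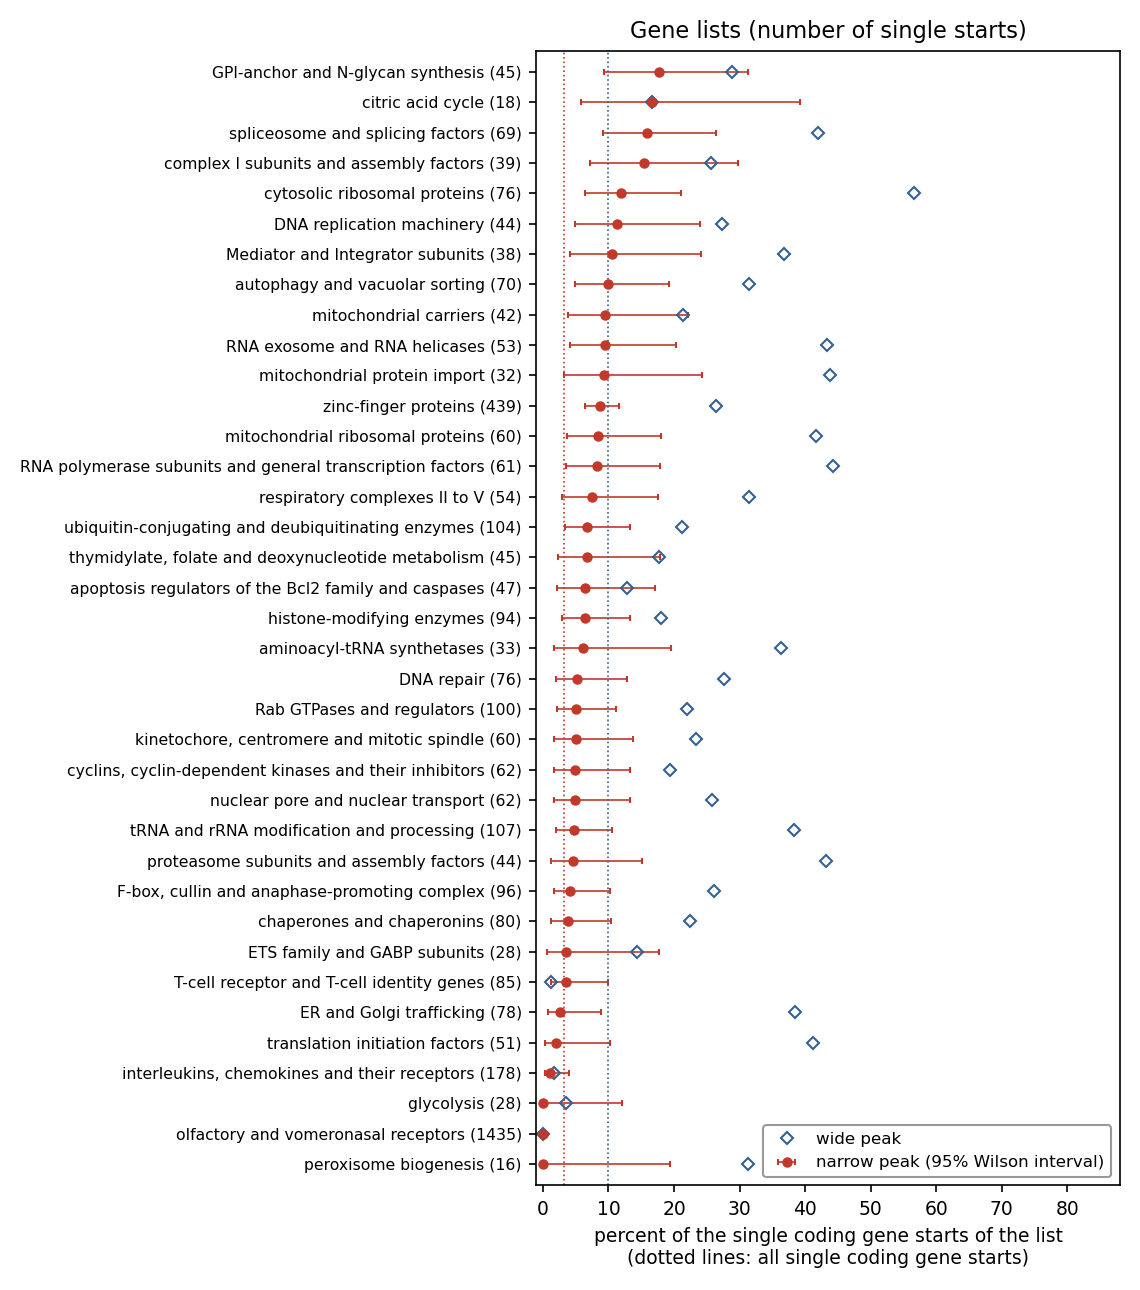
Percent of the single coding gene starts of each of 37 lists (vertical axis, number of starts in brackets) with a narrow peak (filled points, 95% Wilson intervals) or a wide peak (open diamonds). Dotted lines mark 3.26% (narrow) and 9.87% (wide) of all such starts, and the wide share is above the narrow share in all lists but those of the citric acid cycle (equal), T-cell genes (below) and olfactory receptors (both 0).

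Genes for mitochondria and for translation are given first. Among mitochondrial ribosomal proteins 5 of 60 starts had one (8.33%) and 25 had a wide one. The peaks at Mrps26, Mrps30 and Mrpl9 covered the start, with midpoints at -12, -13 and 27.5 bp, and those at Mrps7 and Mrpl17 lay at -82.5 and -227.5 bp. Among cytosolic ribosomal proteins it was 9 of 76 (11.8%, 6.36 to 20.999%), with 43 wide. Of these 9 peaks, 6 held CCGGAAG and 6 covered the start. Rps27l, Rpl38, Rpl21, Rpl24, Rpl32 and Rps4x were those over the start, with midpoints from -49.5 to 58 bp. Translation initiation factors had 1 of 51 (1.96%, 0.347 to 10.3%), Eif3a, and 21 had a wide peak. That interval includes the 3.26% of all single coding gene starts. Aminoacyl-tRNA synthetases had 2 of 33, Sars and the mitochondrial glutamyl-tRNA synthetase gene Ears2.

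Of complex I subunits and assembly factors, 6 of 39 had a narrow peak (15.4%, 7.25 to 29.7%) and 10 a wide one. The assembly factors Ecsit, Ndufaf1 and Tmem126a all had CCGGAAG and covered the start, with midpoints at 0, 2.5 and -18.5 bp and cores at 11, -23 and -7. The subunits Ndufa9, Ndufb2 and Ndufs7 had no CCGGAAG, and the peak at Ndufs7 lay 231 bp downstream. None of the 4 peaks at complexes II to V, at Uqcrfs1 (the Rieske protein of complex III), Cox7c, Atp5j and Atp5b, held CGGAAG. At Atp5j and Uqcrfs1 the core was CCGGAA, at 25 and 6. All 4 peaks at mitochondrial carriers held CCGGAAG, beside 40.2% of all narrow peaks. They were at Slc25a17, Slc25a3 (the phosphate carrier), Slc25a14 and Slc25a5 (an ADP/ATP carrier). Of these 4 only the one at Slc25a17 covered the start. The import genes Mtx3, Grpel1 and Timm8a1 made 3 of 32, and the peak at Timm8a1 was only 27.5% unique in its 36-base sequences.

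**Figure D5:**
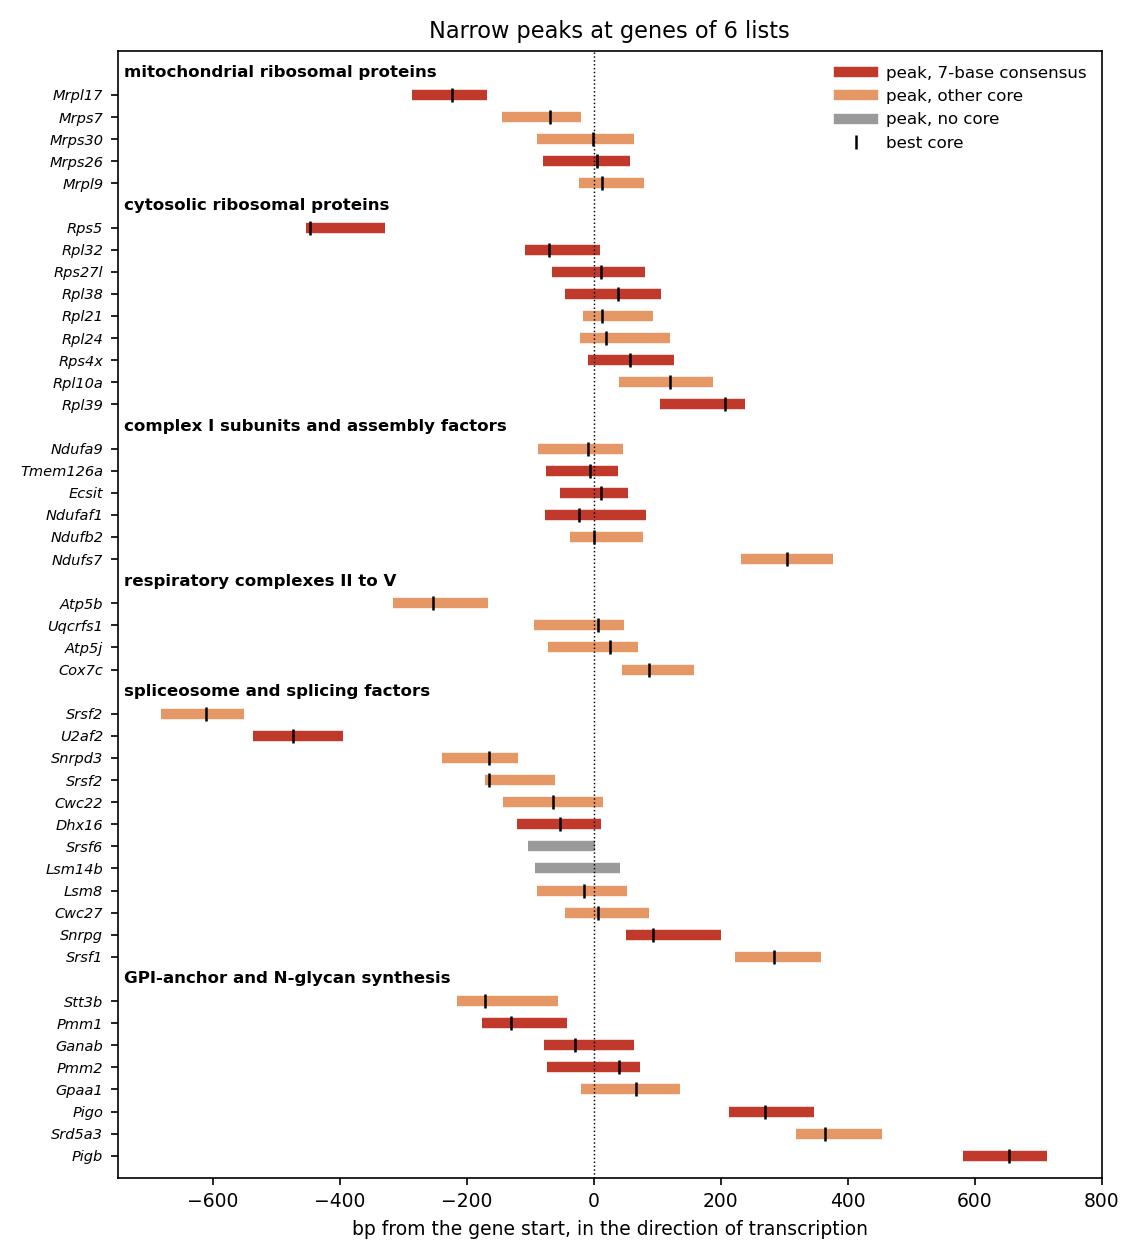
Narrow peaks at genes of 6 lists drawn against the gene start (bp in the direction of transcription, dotted line at 0), with 1 bar per peak coloured by its core and a tick at the best core. Most bars cross the start, and the grey bars at Srsf6 and Lsm14b have no GGAA.

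Splicing and glycan synthesis had among the highest shares of narrow peaks. Of splicing genes 11 of 69 had one (15.9%, 9.14 to 26.3%), with 12 peaks, and 29 had a wide one. They included the SR proteins Srsf1, Srsf2 and Srsf6, the core Sm proteins Snrpd3 and Snrpg, and U2af2, which binds the polypyrimidine tract. Only 3 of the 12 peaks held CCGGAAG, at Dhx16, Snrpg and U2af2, and 2 had no GGAA, at Srsf6 and Lsm14b. Lsm14b entered the list by its symbol and is not known as a splicing factor. Of GPI-anchor and N-glycan genes 8 of 45 had one (17.8%, 9.29 to 31.3%), and 5 of these peaks held CCGGAAG. They were at the phosphomannomutase genes Pmm1 and Pmm2, at Ganab (the catalytic subunit of glucosidase II), Pigo and Pigb, while Gpaa1, of the GPI transamidase, Stt3b, of the oligosaccharyltransferase, and Srd5a3 had other cores. Among the 20 genes of this list with a peak of either width, 35.0% had a narrow one and no wide one, beside 23.1% of all starts with a peak.

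Genes of the transcription machinery were present too. The list of RNA polymerase subunits and general factors had 5 of 61, and 4 of its peaks held CCGGAAG, at Taf13, Gtf2ird2, Taf3 and Gtf3c6. Gtf2ird2 entered the list by its symbol and is not known as a general transcription factor. None of the 4 peaks at Mediator and Integrator genes did, at Med25, Med28, Ints14 and Ints5. Zinc-finger proteins gave the largest number, 38 of 439 (8.66%, 6.37 to 11.7%), with 116 wide. Of these 38 peaks 21 covered the start and 17 held CCGGAAG, beside 47.2% and 40.2% of all narrow peaks. In 35 all 36-base sequences were unique. Zscan12 had its midpoint at 0, Zfp511 at -1 and Zfp93 at -1.5 bp. The list of histone-modifying enzymes had 6 of 94, with Hdac10, Prmt3 and Setd5 over the start. Its members were taken by symbol, and an action on histones is not established for each of them.

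In DNA replication 5 of 44 starts had a narrow peak (11.4%, 4.95 to 23.98%) and 12 a wide one. Pola1, the catalytic subunit of DNA polymerase α, had CCGGAAG at -69 in a peak over the start. The study describes the GABPα peak at the Pola1 promoter as weak and below its cutoff, whereas the deposited list holds this peak. Mcm5, a subunit of the replicative helicase, had CCGGAAA at -175 in a peak of 114 bp that ended 105 bp upstream of the start. Pcna, the sliding clamp, had a peak 469 bp downstream, and Orc5 and Rnaseh1 had CCGGAAG peaks over the start. DNA repair genes had 4 of 76, at Rad51d, Ercc4, Neil1 and Brip1. Of cell division genes, 3 of 60 kinetochore and spindle genes (Mad2l1bp, Bub3 and Mis12), 3 of 62 cyclin and kinase genes (Cdk2ap2, Ccny and Ccnyl1) and 4 of 96 F-box, cullin and anaphase-promoting genes had one. Cdc20, the activator of the anaphase-promoting complex, was among the last, with CCGGAAG at -73. Ddit3, which encodes the stress factor CHOP, had CCGGAAGT at -176 in a peak of 120 bp.

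Protein turnover and trafficking genes followed. Autophagy and vacuolar sorting had 7 of 70 (interval 4.93 to 19.2%), at Uvrag, Vps8, Vps18, Vps26c, Vps33b, Atg5 and Atg101. CGGAAG was found in each of these peaks, beside 60.7% of all narrow peaks. Ubiquitin-conjugating and deubiquitinating enzymes had 7 of 104, Rab genes 5 of 100, proteasome genes 2 of 44 (Psmd2 and Psme1), chaperones 3 of 80 and ER and Golgi trafficking 2 of 78, although 30 starts of the last list had a wide peak. RNA exosome and helicase genes had 5 of 53, tRNA and rRNA processing 5 of 107 and nuclear pore genes 3 of 62.

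Among genes of metabolism, the citric acid cycle had 3 of 18 (Aco1, Pcx and Sucla2, 16.7%, 5.84 to 39.2%), none with the start covered, glycolysis 0 of 28 (up to 12.1%) and peroxisome biogenesis 0 of 16 (up to 19.4%), where the bounds are upper ends of Wilson intervals. Nucleotide and folate metabolism had 3 of 45 (6.67%) and apoptosis regulators 3 of 47 (6.38%). T-cell genes had 3 of 85 (3.53%) and 1 wide, and no peak of the narrow ones held CCGGAAG. They were at Klf2, a factor of T-cell quiescence, over the start with a GGAA core at -41, at Malt1, the paracaspase of antigen-receptor signalling, with CGGAAG at 129, and 2 at Cd37, a tetraspanin gene, at -291.5 and 243 bp. Cd37 entered the list by its symbol and is not a part of the T-cell receptor. Interleukin, chemokine and receptor genes had 2 of 178 (1.12%), Ifnar1, a chain of the type I interferon receptor, with CCGGAAGT at -168, and Stat6, the transducer of interleukin-4 signals, with CCGGAAA at 8. Olfactory and vomeronasal receptor genes had 0 of 1435 starts, which allows a share of up to 0.267%.

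Some narrow peaks lie in copied sequence. The 8 with no unique 36-base sequence included those at 2210418O10Rik, Rbm12b2, Gm3055, Zfp781, Gm5141 and Gm3317. The 24 bases around the best core were identical at Gm3055, Zfp781 and BC024063. They were also identical among Gm3604, Zfp935 and Gm5141, and between Gm14410 and Gm14325. The peaks at Gm3055 and Zfp781 covered the start. Which copy the reads came from was not tested, and for the 8 peaks with no unique 36-base sequence the gene is uncertain.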

How the data were processed

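GABPα ChIP and input DNA of CD4+ T cells were sequenced by the authors. Per the submitters' processing notes the tools were Trimmomatic, Bowtie and MACS2 and the build mm10, with no versions given. The authors deposited peak positions, with no counts, heights or scores, and starts were read as 0-based. Peaks were placed on the GRCm38.p6 sequence and the GENCODE M21 annotation. Words were sought as exact letters on both strands, with overlaps counted. The members and the lists were chosen with earlier results of these data known. Genes were named by a rule: those of each list or core class nearest the start, those with most or longest consensus words, those the study names for binding, T-cell genes, peaks at the limits and peaks without unique sequence. Wilson and Newcombe intervals came from scipy 1.17.1, with numpy 2.4.6, pandas 2.3.3, numba 0.67.0 and matplotlib 3.10.9 on Python 3.11.15. The word search, the assignment of starts and the uniqueness count were tested on simulated data. The input library's own file, expression and ChIP-qPCR were not analysed here.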

Additional observations from a re-analysis of the deposited data

How the results depend on the processing

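Of the 5 main values only the wide minus narrow difference has a direction, and it stayed positive under all 10 alternatives. The other main values are a count and shares, which cannot change direction. The number of narrow peaks was 444 with a width limit of 140 bp and 1178 with 200 bp, and stayed within 1.5 times of 684 under the other 10 alternatives. The share with CCGGAAG was 46.01% both with the 200 bp limit and with peaks of 60 to 70% GC (an alternative chosen after seeing the data), and 60.7% for CGGAAG, 14.2% for CCGGAAGT and 96.9% for GGAA. Cover of the start was 53.7% with the 200 bp limit, 57.7% with a window of 250 bp and 59.2% for a start of any transcript. The wide minus narrow difference was 2.73 points for GGAA, 20.4 points with all peaks at 200 bp and 15.8 points at 104 bp. The share of starts with a narrow peak was 2.12% and 5.54% with limits of 140 and 200 bp, 2.64% with under 10% soft-masking, 2.70% with a window of 250 bp, 3.01% without the smallest peaks and 2.89% without peaks that have a neighbour within 500 bp. Changes in the number of peaks and of starts follow by construction from fewer or more peaks kept, and for the other values the cause was not tested. No paired analysis was possible because there is 1 ChIP library. With no height per peak, a weak and a strong peak of equal width cannot be told apart.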
